A study of Homo sapiens with 2 samples.

Results

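*TKTL1* (ENSG00000007350) encodes transketolase-like 1, a relative of transketolase, and was described together with 7 enzymes of the pentose phosphate pathway, *PGLS*, *PGD*, *RPE*, *RPIA*, *TALDO1*, *TKT*, and *TKTL2*. The 8 genes were taken by name from the 33538 genes of the count tables. *TKTL1* was selected on its measured values, since it was among the most abundant of the genes that were nearly silent in mock-treated cells and present after DAC, and the other 7 were added as its paralogs and pathway partners. The difference of *TKTL1* between the libraries is therefore a description and supports nothing by itself.

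The data came from scRNA-seq of HCT116, an established human colon cancer cell line, with 1 library of mock-treated cells and 1 library of cells treated with 5-aza-2′-deoxycytidine (decitabine, DAC), a cytidine analog that causes loss of DNA methylation as cells divide. The drug (0.5 μM) was added 2 times, 1 and 3 days after plating, and removed by a medium change on day 5, so that the cells analyzed on day 7 had spent their last days without it. The values were unique molecular identifier (UMI) counts, in which each captured transcript molecule is counted once near its 3′ end, so that counts were not divided by gene length. With 1 library per condition there is no replicate, DAC and any other difference between the cultures or libraries cannot be told apart, and no p-value is given. All intervals are exact 95% intervals and cover counting error only.

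The 1783 mock-treated cells held 49911689 UMIs and the 1751 DAC-treated cells held 59046165 UMIs, with medians of 27899 and 35340 UMIs per cell. Mitochondrial transcripts exceeded 50% of the UMIs in 311 and 319 cells, and 12 barcodes were present in both libraries. The epithelial markers *EPCAM*, *KRT8*, *KRT18*, *CDH1*, and *CDX2* ranged from 438 to 101301 UMIs in the mock-treated library and from 762 to 252746 UMIs in the DAC-treated library. Among markers of other cells, *PTPRC* had 0 and 16 UMIs, *PECAM1* had 0 and 46 UMIs, and *COL1A1* had 533 and 1112 UMIs. These 3 genes may also be expressed in the line itself, and their part in the results was not tested.

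The pentose phosphate pathway branches from glycolysis at glucose-6-phosphate. Its oxidative branch yields NADPH, used for biosynthesis and for the reduction of glutathione, and ends in ribulose-5-phosphate. Its non-oxidative branch interconverts pentose phosphates with glycolytic intermediates through isomerase, epimerase, transketolase, and transaldolase reactions, and supplies ribose-5-phosphate for nucleotides. *TKT* encodes the ubiquitous transketolase, whereas *TKTL1* and *TKTL2* are paralogs whose own enzymatic activity is debated, and *TKTL1* is known as a gene with high expression in testis and in some tumors.

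*TKTL1* lies on the forward strand of the X chromosome, at chrX:154295795-154330350 of hg38, and its first exon overlaps the start of *TEX28*, a testis gene on the reverse strand. Since methylation in human cells sits mainly on cytosines of CG dinucleotides, and DAC traps the enzymes that copy it to new DNA, the 250 bases upstream of the *TKTL1* starts are shown beside those of *TKT*, with every CG in capitals. RefSeq (GRCh38.p14) lists 2 *TKTL1* starts, preceded by chrX:154295545-154295794 and chrX:154304920-154305169 on the forward strand, and 1 *TKT* start, preceded by chr3:53256023-53256272 on the reverse strand.
TKTL1 start 1: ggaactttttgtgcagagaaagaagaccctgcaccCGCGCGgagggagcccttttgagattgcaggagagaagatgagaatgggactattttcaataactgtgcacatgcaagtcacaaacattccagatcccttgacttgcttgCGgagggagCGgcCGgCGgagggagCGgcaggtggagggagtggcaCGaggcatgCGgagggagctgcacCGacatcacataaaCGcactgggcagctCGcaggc
TKTL1 start 2: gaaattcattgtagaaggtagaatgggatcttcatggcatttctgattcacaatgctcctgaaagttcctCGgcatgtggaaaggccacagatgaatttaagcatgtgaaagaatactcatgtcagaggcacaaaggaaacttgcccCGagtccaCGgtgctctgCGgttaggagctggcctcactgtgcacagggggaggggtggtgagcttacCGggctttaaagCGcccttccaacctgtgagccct
TKT: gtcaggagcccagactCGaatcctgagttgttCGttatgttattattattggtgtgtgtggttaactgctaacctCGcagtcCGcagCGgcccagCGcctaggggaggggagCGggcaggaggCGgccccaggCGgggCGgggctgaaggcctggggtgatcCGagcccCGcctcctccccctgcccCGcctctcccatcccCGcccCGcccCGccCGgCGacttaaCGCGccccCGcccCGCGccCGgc
The window of the first *TKTL1* start held 13 CG dinucleotides and that of the second start held 6, whereas that of *TKT* held 24. Windows of the other 6 enzymes held 19 for *PGLS*, 27 for *PGD*, 21 for *RPE*, 22 for *RPIA*, 40 for *TALDO1*, and 19 for *TKTL2*. A CG reads the same on both strands, and 93.9% of 35116 promoter windows of this length held at least 1, with a median of 11 and quartiles of 3 and 23. Both *TKTL1* windows therefore held fewer CG dinucleotides than those of all 7 other genes, and they lay on either side of the median of all promoters. Of the 200 most abundant genes that were nearly silent in mock-treated cells, 136 had a RefSeq promoter in the table, and their 192 windows had a median of 13 CG dinucleotides with quartiles of 6 and 21. DNA methylation of these windows is not analysed here.

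**Figure D1:**
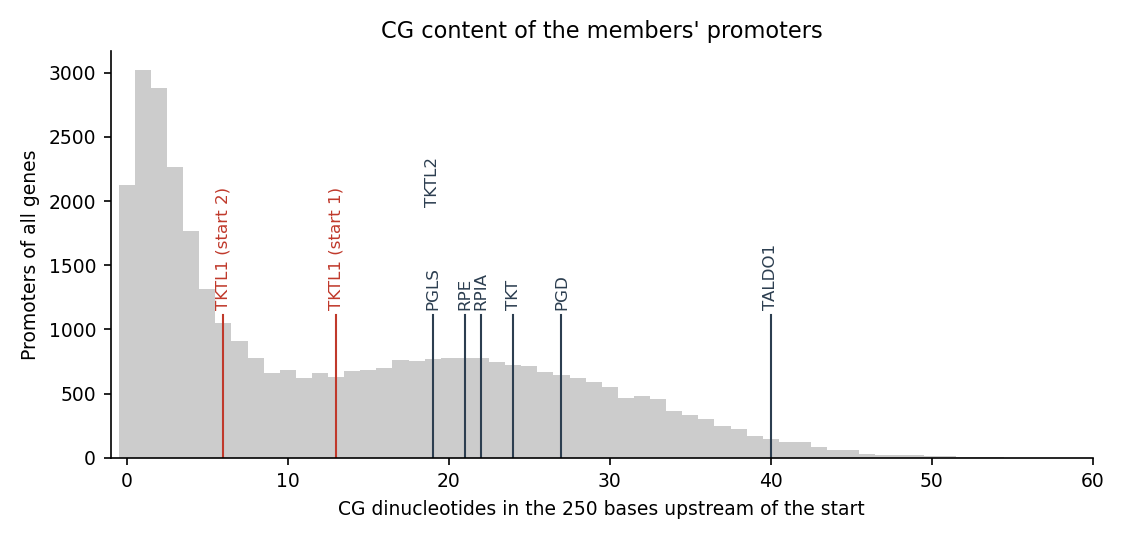
Number of CG dinucleotides in the 250 bases upstream of each start (horizontal axis) against the number of promoters of all genes with that count (grey bars), with vertical lines for the 9 promoters of the 8 genes. The TKTL1 starts stand at 6 and 13, left of the other genes, which stand between 19 and 40.

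*TKTL1* went from 1 UMI in the mock-treated library to 5438 UMIs in the DAC-treated library, whereas no other of the 7 enzymes differed by as much as 2-fold among those with 100 UMIs or more. *PGLS* and *TKT* had lower levels with DAC, *PGLS* close to that limit, and *TALDO1*, *RPE*, *RPIA*, and *PGD* stayed near 1. Levels were compared as UMIs per 1000000 UMIs of the library (CPM). At least 100 UMIs in 1 of the libraries were found for 7 of the 8 genes, and *TKTL1* passed this limit only through the DAC-treated library. Of the 7, 1 had a CPM ratio of 2 or more, beside 16.4% of 12815 genes, and 0 had a ratio of 0.5 or less, beside 6.59% of the 12815 genes. Since the gene that was higher is the one selected for it, nothing is read from the first count. Over the 6 other enzymes the median ratio was 1.06, and over all 12815 genes it was 1.19, with quartiles of 0.845 and 1.65.

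In the oxidative branch, *PGLS* encodes 6-phosphogluconolactonase, which opens the lactone formed in the first step. *PGLS* had 4952 UMIs (99.2 CPM) in the mock-treated library against 2943 UMIs (49.8 CPM) in the DAC-treated one, and at least 1 UMI was found in 69.9% and 55.8% of cells. The CPM ratio was 0.502 (95% CI 0.480–0.526), so that the interval included the 2-fold limit. *PGD* encodes 6-phosphogluconate dehydrogenase, the NADPH-forming step that releases carbon dioxide. *PGD* had 2023 UMIs (40.5 CPM) and 2447 UMIs (41.4 CPM), respectively, with a ratio of 1.02 (95% CI 0.964–1.09). *PGLS* and *PGD*, which act in succession, thus differed in their ratios beyond counting error.

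In the non-oxidative branch, *RPE* encodes ribulose-phosphate epimerase, which forms xylulose-5-phosphate, and *RPIA* encodes ribose-5-phosphate isomerase. *RPE* had 1138 UMIs (22.8 CPM) and 1494 UMIs (25.3 CPM) in mock- and DAC-treated cells, with a ratio of 1.11 (95% CI 1.03–1.20). *RPIA* had 1572 UMIs (31.5 CPM) and 2043 UMIs (34.6 CPM), with a ratio of 1.10 (95% CI 1.03–1.17). *TALDO1* encodes transaldolase, which links the pathway back to fructose-6-phosphate. *TALDO1* had 9681 UMIs (194 CPM) and 12607 UMIs (214 CPM), with a ratio of 1.10 (95% CI 1.07–1.13). The shares of cells with a *TALDO1* UMI were 77.7% and 74.9%. These 3 ratios and that of *PGD* lay below the median ratio of all genes, 1.19. Scaling by the median of ratios, which lowers the log2 ratio of every gene by 0.24, brought all 4 below 1, to 0.933 for *TALDO1*, 0.941 for *RPE*, 0.931 for *RPIA*, and 0.867 for *PGD*, so that their direction depends on the scaling. The same scaling took *PGLS* to 0.426, past the 2-fold limit.

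Among the transketolases, *TKT* had 20036 UMIs (401 CPM) and 14639 UMIs (248 CPM) in mock- and DAC-treated cells, and was found in 84.4% and 77.2% of cells. The ratio was 0.618 (95% CI 0.605–0.631), at percentile 11.2 of the ratios of all 12815 genes. *TKTL1* had 1 UMI (0.02004 CPM) without DAC and 5438 UMIs (92.1 CPM) with DAC. Its ratio was 4597 with a counting interval from 825 to 181594, whose width comes from the single UMI of the mock-treated library. The mean of per-cell CPM gave 9014. *TKTL2*, an intronless paralog on chromosome 4, was not found in mock-treated cells (0 UMIs) and had 8 UMIs in 8 DAC-treated cells. Against a floor of 3 counts over the library, *TKTL2* was at least 2.25-fold higher, whereas the exact interval, which allows for the error of the 8 UMIs, had a lower limit of 1.44. These counts were too low to enter the comparison of all genes.

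**Figure D2:**
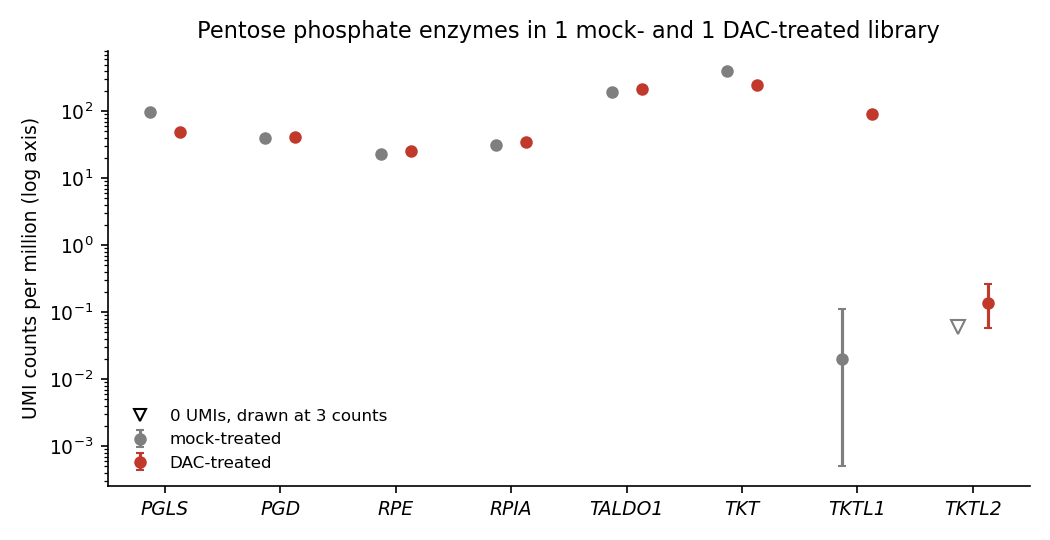
CPM (log axis) of the 8 genes in the mock-treated library (grey) and the DAC-treated library (red), with exact 95% Poisson intervals as bars, mostly smaller than the points. TKTL1 goes from 0.02004 to 92.1 CPM while the 6 other enzymes with 100 UMIs or more stay within about a factor of 2. The open triangle is TKTL2 with 0 UMIs, drawn at 3 counts.

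The sequences of the transketolase transcripts leave little room for reads of one to be counted for another. Of 3674 words of 31 bases in the annotated *TKTL1* transcripts (GENCODE release 44), 0 occurred in any other gene, and 0 of 2630 *TKTL2* words did. *TKT* shared 0 words with *TKTL1* or *TKTL2*. In contrast, *RPE* shared 683 of 3801 words with *RPEL1*, a retrocopy with 4 and 2 UMIs, and *PGD* shared 289 of 3409 words with *PGDP1*, so that counts of *RPE* and *PGD* are less certain. *RPE* also overlaps *KANSL1L* and *PGLS* overlaps *PGLS-DT* on the opposite strand, and whether counting used the strand is not given in the sources used here. *TEX28*, which overlaps *TKTL1*, had 0 and 7 UMIs.

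*TKTL1* UMIs were found in a minority of DAC-treated cells and were abundant in a smaller one. At least 1 UMI was found in 1 of the 1783 cells without DAC (0.0561%, 95% CI 0.00142–0.312) and in 622 of the 1751 cells with DAC (35.5%, 95% CI 33.3–37.8). The mock-treated cells, with a median of 27899 UMIs per cell against 35340, held almost no *TKTL1* RNA, so that they cannot show how much free *TKTL1* RNA reached the droplets of the DAC-treated library. No cell type without the gene was present there as a background, and whether the 271 cells with 1 or 2 UMIs expressed *TKTL1* was not tested. At 3 UMIs or more, the limit by which the study calls upregulation, the counts were 0 of 1783 cells, which allows a share of up to 0.168% by the floor of 3 counts and 0.207% by the exact interval, and 351 of 1751 cells (20.05%, 95% CI 18.2–22.0). Drawn down to 1007 UMIs in every cell, with 214 shallower DAC-treated cells and 138 mock-treated cells left out, the expected share with a *TKTL1* UMI was 7.27% with DAC and 0.00107% without. *TKTL1* ranked 8th in mean UMI count among the 22208 genes that never exceeded 2 UMIs in a mock-treated cell.

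The molecules were concentrated in few cells. No *TKTL1* UMI was found in 1129 cells, where an even share of the transcripts at each cell's depth would leave 445. The 10% of DAC-treated cells with the most *TKTL1* held 72.6% of its 5438 UMIs. Computed in the same way, the share was 45.2% for *RPIA*, 43.0% for *RPE*, 40.8% for *PGLS*, and 39.15% for *PGD*. The more abundant *TKT* and *TALDO1* were at 30.8% and 29.6%. Among cells with *TKTL1*, 216 had 1 UMI, 55 had 2, 139 had 3 to 9, 182 had 10 to 29, and 30 had 30 or more, up to 80 in 1 cell. The 182 cells with 10 to 29 UMIs held 56.6% of all *TKTL1* UMIs, and the 30 cells above them held 23.3%. Cells with 1 UMI were thus the most frequent, but most molecules came from cells with 10 or more.

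The share of cells with *TKTL1* was larger in deeper cells, whereas its CPM varied with no such order. DAC-treated cells were divided into 10 groups of like size by total UMIs. In the group with the fewest UMIs (501 to 852 per cell), 5.68% had a *TKTL1* UMI, and in the group with the most (67112 to 110116), 54.9% did. The shares with 3 UMIs or more were 0% and 40%. The CPM of *TKTL1* in the same groups was 94.99 and 101, and it was lowest, 45.8, in the group of 4177 to 13720 UMIs, where mitochondrial transcripts made up a median of 61.3% of the UMIs. Among DAC-treated cells with 10000 UMIs or more and at most 50% mitochondrial UMIs, 501 of 1120 (44.7%) had *TKTL1*, against 1 of 1298 mock-treated cells (0.0770%). Even in the deepest group of 175 cells, 96 had a *TKTL1* UMI and the rest had none.

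**Figure D3:**
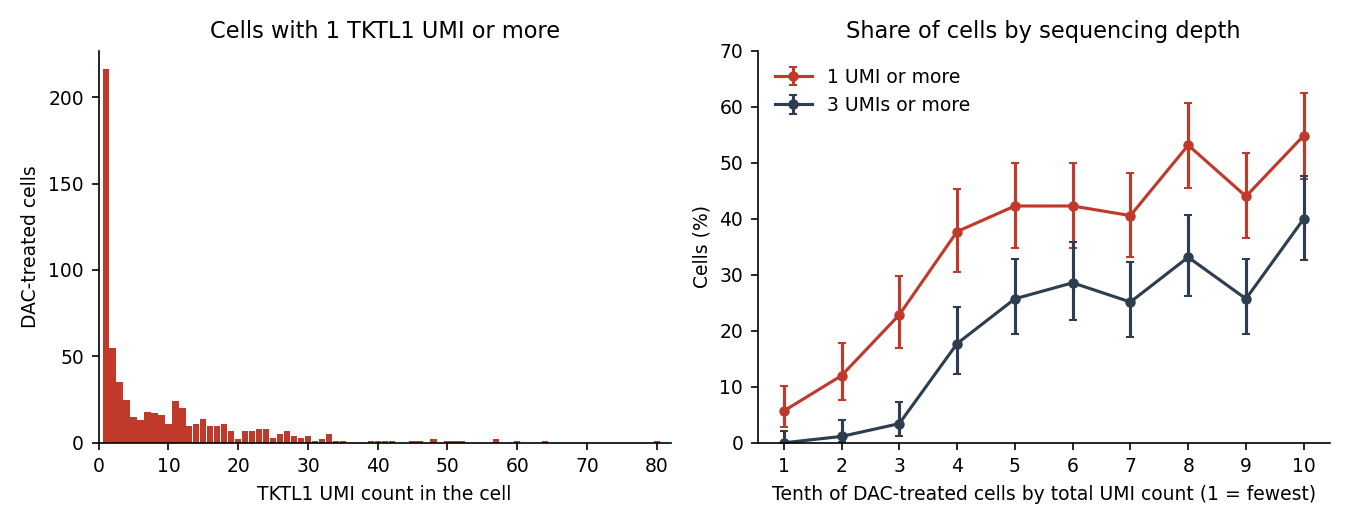
Left, number of DAC-treated cells (vertical axis) by their TKTL1 UMI count, for the 622 cells with 1 or more; right, share of cells with 1 UMI or more (red) and 3 or more (dark) in 10 groups of DAC-treated cells by total UMI count, with exact 95% binomial intervals. On the left 1 UMI is the most frequent count (216 cells), with a tail to 80, and the shares on the right go from 5.68% to 54.9% and from 0% to 40%.

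Genes with nearly the same total as *TKTL1* differed in how many cells they occupied. Of the genes that never exceeded 2 UMIs in a mock-treated cell, the 5 nearest in CPM in DAC-treated cells were *VCX3A*, *UCHL1*, *LINC00958*, *GAGE12H*, and *LY6K*. *VCX3A*, a cancer-testis gene, had 90.9 CPM in 20.7% of DAC-treated cells, and *GAGE12H*, another, had 78.8 CPM in 27.4% of cells. *UCHL1*, a ubiquitin hydrolase of neurons, had 98.1 CPM in 49.5% of cells. *LINC00958* had 81.5 CPM in 50.8% and *LY6K* had 115 CPM in 62.6% of cells. *TKTL1*, with 92.1 CPM in 35.5% of cells, lay between these groups, and counts of *VCX3A* and *GAGE12H* are uncertain because of near-identical copies.

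The makeup of the transketolase transcripts is given as a description, since *TKTL1* was selected for its difference between the libraries and raises any sum that includes it. The UMIs of *TKT*, *TKTL1*, and *TKTL2* summed to 20037 (401 CPM) and 20085 (340 CPM) in mock- and DAC-treated cells, a ratio of 0.847 (95% CI 0.831–0.864). *TKTL1* was 0.00499% of these UMIs without DAC and 27.1% (95% CI 26.5–27.7) with DAC. Its share followed the cells. *TKTL1* made up 42.0% of the transketolase UMIs in cells with 3 to 9 *TKTL1* UMIs, 57.6% in cells with 10 to 29, and 76.9% in the 30 cells with 30 or more. In that last group *TKTL1* reached 656 CPM beside 197 CPM of *TKT*. The increase of *TKTL1* across these groups is fixed by how they were formed, whereas *TKT* was not used to form them.

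*TKT* was also lower in DAC-treated cells without any *TKTL1*. Relative to all mock-treated cells, the CPM of *TKT* was 0.669 (95% CI 0.652–0.686) in the 1129 cells without a *TKTL1* UMI, 0.611 (95% CI 0.586–0.638) in the 271 cells with 1 or 2, and 0.528 (95% CI 0.510–0.547) in the 351 cells with 3 or more. *PGLS* was at 0.500, 0.548, and 0.482 in the same 3 groups. The lower levels of both genes after DAC were therefore found with and without *TKTL1*. *RPIA* was at 1.07, 0.994, and 1.22, *TALDO1* at 1.13, 1.06, and 1.07, *RPE* at 1.17, 1.14, and 0.981, and *PGD* at 1.05, 0.991, and 0.997. Within the 351 cells, *TKT* showed no steady fall with *TKTL1*. It was at 179 CPM with 3 to 9 *TKTL1* UMIs, 235 CPM with 10 to 29, and 197 CPM with 30 or more.

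**Figure D4:**
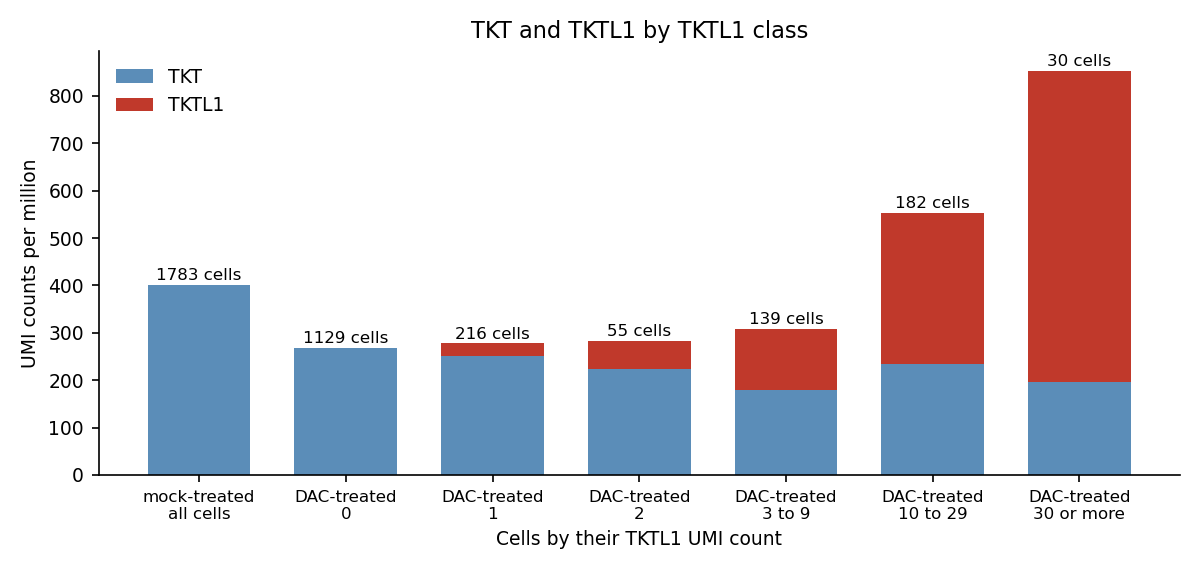
CPM of TKT (blue) and TKTL1 (red), stacked, in all mock-treated cells, then in DAC-treated cells grouped by their TKTL1 UMI count, with the number of cells above each bar. TKT is 401 CPM without DAC and 269 CPM in DAC-treated cells without TKTL1, and TKTL1 exceeds TKT in the cells with 10 UMIs or more.

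To compare the pathway between cells with and without *TKTL1*, the 351 DAC-treated cells with 3 *TKTL1* UMIs or more (TKTL1-positive) were set against the 1129 cells with 0 (TKTL1-negative). The positive cells were deeper, with medians of 48376 and 26429 UMIs, so that the UMIs of each gene in positive cells were divided by those expected from negative cells of the same depth group, using 10 groups of total UMIs. *TKT* and *RPE* were lower in positive cells, *TALDO1* and *PGD* slightly lower, and *PGLS* and *RPIA* did not differ beyond counting error. Cells of 1 library are not replicates, and the intervals cover counting error in the positive cells only.

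*TKT* had 3704 UMIs in positive cells where 4741 were expected, a ratio of 0.781 (95% CI 0.756–0.807). *RPE* had a ratio of 0.801 (95% CI 0.724–0.885). *TALDO1* was at 0.930 (95% CI 0.8999–0.961) and *PGD* at 0.923 (95% CI 0.857–0.994). Transketolase, transaldolase, and the epimerase all act in the non-oxidative branch, but so does *RPIA*, which was at 1.07 (95% CI 0.993–1.16). *PGLS* was at 0.951 (95% CI 0.887–1.02), and *TKTL2* had 3 UMIs where 1.81 were expected. The 7 genes summed to 0.872 (95% CI 0.855–0.889), with 9926 UMIs where 11388 were expected. *TKT*, the most abundant, weighs most in this sum.

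Among 12524 genes compared in the same way, the median ratio was 1.02 with quartiles of 0.877 and 1.22. Of the 6 enzymes with 100 UMIs or more, 1 (*TKT*) had a ratio of 0.8 or less, beside 14.5% of all genes, and 0 had a ratio of 1.25 or more, beside 22.2%. *RPE*, at 0.801, just missed the lower limit. Both lay close enough to it to cross under other settings. *TKT* was at 0.803 per non-mitochondrial UMIs, 0.827 with 1 *TKTL1* UMI or more as positive, 0.835 without cells over 20% mitochondrial UMIs, and 0.843 with 10 or more as positive, whereas *RPE* was at 0.777 without the 5% of cells with the most UMIs and at 0.767 with 10 or more as positive. Among the ratios of all genes, *TKT* stood at percentile 12.3, *RPE* at 14.6, *PGD* at 32.6, *TALDO1* at 33.6, *PGLS* at 37.2, and *RPIA* at 57.6. The median of the 6 was 0.927.

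Other gene groups also differed between the same cells. A list of 20 S-phase genes summed to 0.754 in positive against negative cells, and 20 G2/M genes to 0.649, with 16 and 19 of the 20 at 0.8 or less, beside 14.5% of all genes. The depth groups were each split into 3 by the share of S-phase and G2/M UMIs, a comparison chosen after seeing the data. Both lists together then came to 0.978, which is near 1 because the same lists formed the groups. In that comparison *TKT* was at 0.795, *RPE* at 0.799, and the 7 genes at 0.895, whereas *TALDO1* was at 0.975, *PGLS* at 0.873, *RPIA* at 1.14, and *PGD* at 1.04, above 1. Mitochondrial transcripts were at 1.11 in positive cells. The other 199 of the 200 most abundant genes nearly silent in mock-treated cells summed to 1.55. Their median was 1.24. Of the 199, 98 were at 1.25 or more, beside 22.2% of all genes, and 28 were at 0.8 or less, beside 14.5%.

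Some markers of cell identity differed as well. The 5 epithelial markers summed to 0.605 (95% CI 0.601–0.609) in positive against negative cells, lower than either cell cycle list. This sum rests on the keratins *KRT8* and *KRT18*, at 0.608 and 0.584, whereas *EPCAM* was at 0.962, *CDH1* at 1.01, and *CDX2* at 1.32, and the median of the 5 was 0.962. The 3 markers of other cells summed to 1.38 (95% CI 1.24–1.52), with 22.7 CPM in positive and 17.8 CPM in negative cells. Most of these UMIs were *COL1A1*, at 1.40, whereas *PTPRC* had 5 UMIs and *PECAM1* 14 in the positive cells. The part of the cell cycle, marker, mitochondrial, and induced genes in the levels of the pathway was not tested.

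**Figure D5:**
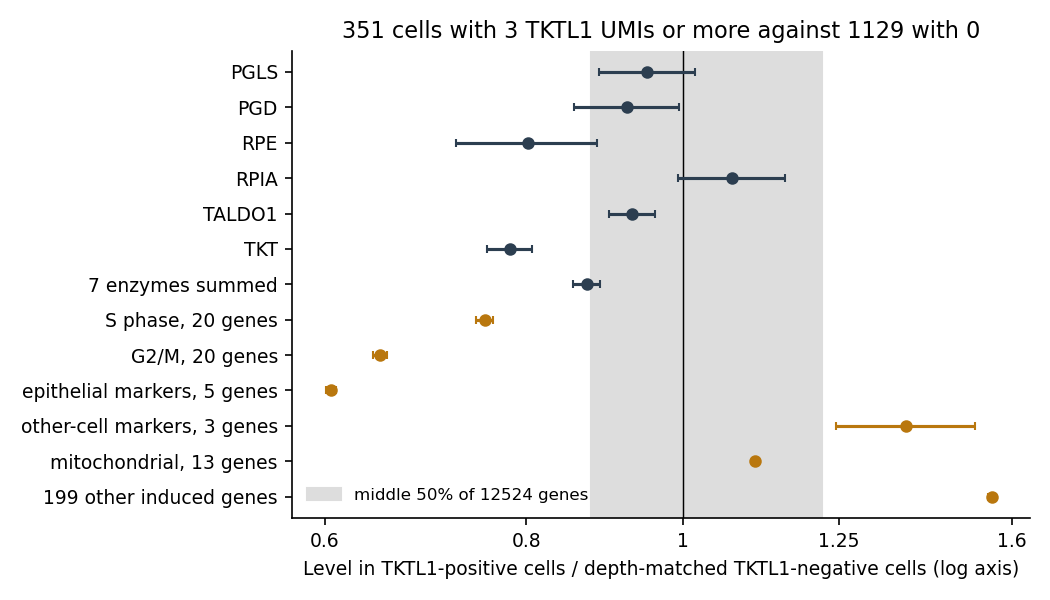
Level in the 351 TKTL1-positive DAC-treated cells relative to the level expected from the 1129 TKTL1-negative cells of the same depth (log axis), with exact 95% Poisson intervals; dark points are pathway enzymes, orange points are other gene groups, and the grey band is the middle 50% of 12524 genes. TKT (0.781) and RPE (0.801) lie left of the band, and the other 4 enzymes lie inside it. The epithelial markers (0.605), a sum that rests on KRT8 and KRT18, and the G2/M genes (0.649) lie furthest left.

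The spread of the enzymes between cells was compared in both libraries. The squared coefficient of variation of a gene's share of UMIs beyond Poisson sampling was computed over cells with 10000 UMIs or more and at most 50% mitochondrial UMIs. It was higher with than without DAC for 5 of the 6 enzymes with 1000 UMIs or more in both libraries, beside 85.3% of 4661 genes, so that the count is near that of all genes. *RPIA* went from 0.0457 to 0.365, a ratio of 7.99, at percentile 97.0 of all genes, and *PGLS* went from 0.0905 to 0.372. *TALDO1* went from 0.0395 to 0.138, *TKT* from 0.106 to 0.207, and *PGD* from 0.127 to 0.208. *RPE* alone was lower, at 0.168 and 0.119. *TKTL1*, with 1 UMI in the mock-treated library, did not enter this comparison. It had 3.16 in DAC-treated cells, above every other enzyme. Other genes nearly silent in mock-treated cells were not compared in this measure.

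Correlations among the enzymes across cells were weak. Across 1298 mock-treated cells, the 15 pairs of the 6 enzymes had Pearson's r between −0.03 and 0.10 on log2(1 + UMIs per 10000), and across 1120 DAC-treated cells between −0.08 and 0.26. The highest was that of *TKT* with *TALDO1* in DAC-treated cells, 0.26, against 0.03 in mock-treated cells. All these values come from cells of a library that share their depth range and counting noise, and most are too weak to be read. *TKTL1* had an r of 0.08 with *RPIA*, −0.01 with *TALDO1*, −0.04 with *PGD*, −0.05 with *PGLS*, −0.10 with *TKT*, and −0.10 with *RPE*.

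The genes whose pattern across cells was most like that of *TKTL1* lay outside the pathway. Over the same 1120 DAC-treated cells and 13284 genes found in at least 5% of them, the median r with *TKTL1* was 0.01 and the 99th percentile was 0.21. The 5 highest were *BAG1* (0.58), *PNMA5* (0.54), *MAGEA12* (0.49), *MAGEA6* (0.49), and *CTAG2* (0.47). *BAG1* encodes a co-chaperone of HSP70 and lies on chromosome 9, whereas the other 4 are cancer-testis or paraneoplastic antigen genes of the distal X chromosome. *MAGEA12*, *MAGEA6*, and *CTAG2* have near-identical copies, and their counts are uncertain.

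*BAG1* differed from the other 4 genes in that mock-treated cells already expressed it. It had 2727 UMIs (54.6 CPM) without DAC and 5346 UMIs (90.5 CPM) with DAC. Within DAC-treated cells it was at 55.4 CPM without *TKTL1*, at 53.3 CPM with 1 or 2 *TKTL1* UMIs, and at 175 CPM with 3 or more, so that the level in cells with little or no *TKTL1* was close to that of mock-treated cells. These genes were picked for their correlation with *TKTL1* in the same cells, so that higher levels with *TKTL1* follow from the choice and are a description. *PNMA5* went from 2 to 3400 UMIs between the libraries, with 19.5 CPM in negative cells and 141 CPM in positive cells. *CTAG2* went from 0 to 3904 UMIs, with 17.99 and 175 CPM. At least 1 *CTAG2* UMI was found in 57.5% of positive and 11.2% of negative cells.

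Of the 20 genes most like *TKTL1*, a number chosen after seeing the data, 13 lay on the X chromosome and 10 started within 5 Mb of the start of *TKTL1*. Of all 13284 genes ranked, 3.31% lay on the X chromosome and 0.519% within 5 Mb. Of the 50 most alike, 17 lay on the X chromosome and 11 within 5 Mb. Of the 20, 10 never exceeded 2 UMIs in a mock-treated cell, beside 16.7% of all ranked genes. The r of the 20th gene was 0.31. The median r of all ranked genes within 5 Mb, 69 in number, was 0.06.

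The neighbors of *TKTL1* on the chromosome were examined in the same way. Of 20 protein-coding genes within 200 kb, 15 had 100 UMIs or more in at least 1 library, and 2 of them were 2-fold higher, beside 16.4% of all genes, and 1 was 2-fold lower in DAC-treated cells, beside 6.59%. These counts are near the shares of all genes. Their median ratio was 1.24, against 1.19 for all genes. *FLNA*, which encodes filamin A, lies 18174 bp downstream and went from 3955 UMIs (79.2 CPM) to 11911 UMIs (202 CPM), a ratio of 2.55. *SLC10A3* went from 551 to 1414 UMIs, a ratio of 2.17, and *RPL10*, a ribosomal protein gene, from 284482 to 165341 UMIs, a ratio of 0.491. *EMD*, which encodes emerin, was at 0.959. Scaling by the median of ratios took *SLC10A3* to 1.84, below 2-fold, whereas *FLNA* stayed at 2.16.

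Enzymes around the pathway were described by lists, each set beside the same shares of all genes, 16.4% higher and 6.59% lower. Of 10 enzymes that feed or drain the pathway with 100 UMIs or more, 2 were higher and 1 was lower, with a median ratio of 1.09. *SHPK*, which makes sedoheptulose-7-phosphate, went from 154 to 499 UMIs, a ratio of 2.74. *TIGAR*, a bisphosphatase that directs glucose-6-phosphate into the pathway, went from 671 to 2166 UMIs, a ratio of 2.73. *H6PD*, which runs the oxidative steps inside the endoplasmic reticulum, went from 563 to 141 UMIs, a ratio of 0.212, the lowest of this list. *PRPS1*, which makes phosphoribosyl pyrophosphate from ribose-5-phosphate, was at 1.78, and *PRPS2* at 1.22.

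Enzymes that supply NADPH outside the pathway were listed as 9 genes. Of the 6 with 100 UMIs or more, 3 were lower and 1 was higher, with a median ratio of 0.678. *MTHFD2*, a mitochondrial folate enzyme, went from 14346 to 6961 UMIs, a ratio of 0.410. The isocitrate dehydrogenases *IDH1* and *IDH2* were at 0.344 and 0.483. *ALDH1L1*, a folate dehydrogenase, went from 51 to 167 UMIs, a ratio of 2.77, and passed the limit of 100 UMIs only through the DAC-treated library. *ME1*, malic enzyme, was at 0.872. Of the 3 genes below the limit, *NNT*, the mitochondrial transhydrogenase, went from 10 to 87 UMIs (ratio 7.35, 95% CI 3.81–15.9), *ME3* went from 4 to 32 UMIs (ratio 6.76, 95% CI 2.40–26.3), and *ALDH1L2* went from 70 to 58 UMIs.

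Among 10 genes that use NADPH, 2 were higher and 1 was lower, with a median ratio of 1.28. *CBR1*, a carbonyl reductase, went from 0 to 1071 UMIs, at least 302-fold higher against 3 counts, with a lower limit of 245 by the exact interval. *CBR1* passed the limit of 100 UMIs only through the DAC-treated library. *TXNRD2*, the mitochondrial thioredoxin reductase, was at 2.87, and *NQO1*, a quinone reductase, fell from 18369 to 9254 UMIs, a ratio of 0.426. Of 11 genes where the pathway meets glycolysis and gluconeogenesis, 1 was higher and 0 were lower. That gene, *FBP1*, which encodes fructose-1,6-bisphosphatase, went from 6 to 112 UMIs. Like *CBR1*, *FBP1* passed the limit of 100 UMIs only through the DAC-treated library. *GAPDH* was at 1.01.

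Of 10 genes that use phosphoribosyl pyrophosphate or act in purine synthesis, 1 was higher, *PFAS* at 2.75, and 0 were lower, with a median of 1.01. Thiamine diphosphate is the cofactor of transketolase. Of 8 genes for its uptake, its formation, or other enzymes that use it, 0 were higher and 1 was lower, with a median of 0.913. The latter was *OGDHL*, at 0.429. In contrast, 15 of 20 S-phase genes and 8 of 20 G2/M genes were higher, with medians of 2.19 and 1.91, and 0 of either list were lower.

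Median-of-ratios scaling, under which 11.7% of all genes were 2-fold higher and 9.93% were 2-fold lower, changed several of these counts. It left 8 S-phase and 2 G2/M genes higher, with medians of 1.85 and 1.62. On the glycolysis list, 2 genes became lower, *PFKM* at 0.451 and *ALDOC* at 0.466. *PGM1*, a phosphoglucomutase at 0.456, and *DHTKD1*, a thiamine diphosphate enzyme at 0.499, joined the lower genes of their lists. The counts for other NADPH sources, NADPH users, and users of phosphoribosyl pyrophosphate did not change.

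The same lists were compared between TKTL1-positive and TKTL1-negative cells, where the 6 members had a median of 0.927. Other NADPH sources had a median ratio of 0.732, with 4 of 6 at 0.8 or less, and NADPH users a median of 0.761, with 6 of 10, both beside 14.5% of all genes. At 1.25 or more there were 0 of the sources and 1 of the users, beside 22.2%. Enzymes that feed or drain the pathway had a median of 0.885, with 3 of 10, and the glycolysis list 0.877, with 2 of 11. Users of phosphoribosyl pyrophosphate had a median of 0.891, with 0 of 10. The thiamine list stood at 1.00, with 1 of 8 at 0.8 or less and 1 at 1.25 or more. The cell cycle lists, *KRT8*, and *KRT18* were also lower in positive cells. Other markers were not, with *EPCAM* at 0.962, *CDH1* at 1.01, *CDX2* at 1.32, and *COL1A1* at 1.40. The part of the cell cycle and marker genes in these lists was not tested.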

How the data were processed

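Single cells of 1 mock- and 1 DAC-treated HCT116 culture were captured with 3′ chemistry. Per the labels and the paper, the authors mapped reads to hg38 and counted UMIs using Cell Ranger, and deposited tables of raw, whole-number UMI counts (genes by cells). The annotation release and any filter on cells are not given in the sources used here. All deposited cells were used, and doublets were not called. Doublets within a single line can occur, and their part in the deeper cells was not tested.

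UMIs were summed over cells and scaled to CPM, using numpy 2.4.6 and pandas 2.3.3 under Python 3.11.15, with intervals from scipy 1.17.1 and plots from matplotlib 3.10.9. Genes needed 100 UMIs in the higher of the libraries to be compared, and were called at a 2-fold CPM ratio. Ratios have exact conditional binomial intervals, sums have exact Poisson intervals, and shares have Clopper-Pearson intervals, at 95%. A count of 0 was set at 3 counts per library. The drawn-down share was computed from the hypergeometric distribution. The script was tested on simulated data. Gene positions came from GENCODE release 44. With 1 library per condition, no test between conditions was made.

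The named genes were the 8 members, genes of lists written for this pathway, protein-coding genes within 200 kb of *TKTL1*, the 5 genes of highest correlation with it, and the 5 selected genes nearest in CPM. The members and lists were chosen with earlier results of these data known. The result of 1 gene of the lists is not reported here. Alternatives were other scalings, cell filters, UMI limits, and depth groups.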

Additional observations from a re-analysis of the deposited data

How the results depend on the processing

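No paired analysis was possible because each condition had 1 library. The share of DAC-treated cells with *TKTL1*, 35.5%, was 20.05% at 3 UMIs or more, 7.27% when every cell was drawn down to 1007 UMIs, 32.9% without cells over 20% mitochondrial UMIs, and 44.7% without cells under 10000 UMIs or over 50% mitochondrial UMIs. The CPM ratio of *TKTL1* stayed between 3545 and 9014 under 7 alternatives, within its interval. The ratio of *TKT*, 0.618, was 0.523 with median-of-ratios size factors, 0.636 per non-mitochondrial UMIs, 0.654 as the mean of per-cell CPM, 0.690 without cells over 20% mitochondrial UMIs, and 0.637 without the 5% of cells with the most UMIs. The ratio of *PGLS*, 0.502, was 0.426 with median-of-ratios size factors, 0.618 as the mean of per-cell CPM, and 0.468 without cells over 20% mitochondrial UMIs. The number of members past 2-fold, 1, became 2 with *PGLS* under median-of-ratios scaling, without cells over 20% mitochondrial UMIs, and without the 5% of cells with the most UMIs, and 2 with *TKTL2* when genes with fewer than 100 UMIs were kept. Median-of-ratios scaling turned *TALDO1* to 0.933, *RPE* to 0.941, and *RPIA* to 0.931, and took the higher S-phase genes from 15 to 8, the higher G2/M genes from 8 to 2, the lower glycolysis genes from 0 to 2, the lower pathway-linked and thiamine genes from 1 to 2 each, and the higher neighbors of *TKTL1* from 2 to 1. The level of the 7 other members in TKTL1-positive against negative cells, 0.872, was 0.896 at 1 UMI or more, 0.896 per non-mitochondrial UMIs, 0.923 without cells over 20% mitochondrial UMIs, and, as alternatives added after seeing the data, 0.895 within groups of like cell cycle share and 0.921 at 10 UMIs or more. *PGD* turned to 1.04 within groups of like cell cycle share, *PGLS*, whose interval included 1, to 1.07 without cells over 20% mitochondrial UMIs and 1.01 at 1 UMI or more, and *RPIA*, whose interval also included 1, to 0.983 without the 5% of cells with the most UMIs. Without the 12 barcodes found in both libraries, the share was 35.65%, the *TKTL1* ratio 4545, and the level of the 7 members 0.873. The causes were not tested. Detection per cell is limited by depth, and the *TKTL1* ratio by the single mock-treated UMI.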
